A study of Mus musculus with 30 samples.

Results

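The genes described here build and load MHC class II molecules, which hold peptides for CD4 T cells. They were chosen by name as H2-Aa, H2-Ab1, H2-Eb1, Cd74, H2-DMa, H2-DMb1, Ciita and Ctss. Of these 8 genes 7 had an array row naming 1 symbol, out of 19938 genes tested in all. H2-DMb1 shared its row with H2-DMb2, so no value is given for it. The tissue was tumour grown under the skin from EL4, a T cell lymphoma line of the mouse, and total RNA of 30 tumour samples was measured on 1 expression array each. Among T cell markers, Cd3e stood at 11.12 to 11.52 and Thy1 at 11.74 to 12.24 on the log2 scale, above 96.7% and 98.7% of all genes by mean. Of the 9 measured, Cd2 (7.31 to 8.31) and Cd247 (8.06 to 8.60) were the lowest, above 54.35% and 60.86%. Mice had been given an antibiotic cocktail for 3 weeks before the tumour cells were injected or had been left untreated (H2O, called water mice here). All mice then received 10 mg/kg oxaliplatin, a platinum drug that damages DNA, 7 days after inoculation. Tumours were taken at 0, 6 or 18 h, with 5 arrays for each of the 6 combinations of water or antibiotics and time. Every sample was thus from a mouse given oxaliplatin, no group without the drug was measured at 6 or 18 h, and an effect of the drug and other change with time cannot be told apart. The sample titles mark all 30 samples WT. The labels give neither the strain nor a statement that each sample came from its own mouse, so the p-values only weigh the spread among these samples, which may be technical. The question set by the design was how antibiotics altered gene expression in the tumour before and early after chemotherapy.

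A class II molecule is an alpha and a beta chain that pair in the endoplasmic reticulum around the invariant chain, which blocks the groove and carries the complex to late endosomes. There cathepsins degrade the invariant chain, and the H2-DM complex exchanges its last fragment for peptides from engulfed protein. Transcription depends on the coactivator CIITA, which is recruited by factors bound to X and Y box elements of the promoters, and dendritic cells, macrophages and B cells are the main cells that make class II. Interferon gamma induces CIITA in many other cells. The tumours were analysed as bulk RNA, in which fewer cells of a type and less RNA per cell cannot be told apart.

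Promoters from RefSeq (assembly GRCm38.p6) were at hand for 4 of the 7 measured genes, and the 110 bases before the annotated start are shown for 3 whose values the results turn on. H2-Aa, the alpha chain of H2-A, is read from the minus strand at chr17:34287824-34287933. H2-Eb1, the beta chain of H2-E, is at chr17:34305757-34305866 on the plus strand, and Ctss, the protease cathepsin S, at chr3:95526676-95526785 on the plus strand. Capitals mark the letters CTGATTGG, a Y box with the core ATTGG inside it, the X box core CTNGNNAC, and GAAANNGAA, a core of interferon response elements, searched on both strands.
H2-Aa: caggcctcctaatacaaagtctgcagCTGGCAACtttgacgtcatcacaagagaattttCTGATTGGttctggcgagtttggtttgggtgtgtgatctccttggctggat
H2-Eb1: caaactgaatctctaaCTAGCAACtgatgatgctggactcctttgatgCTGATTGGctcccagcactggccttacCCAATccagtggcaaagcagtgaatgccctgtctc
Ctss: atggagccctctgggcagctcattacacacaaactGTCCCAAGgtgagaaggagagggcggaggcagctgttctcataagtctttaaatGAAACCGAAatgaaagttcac

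In both chain promoters an X box core lay upstream of a Y box, beginning 84 and 51 bases before the start in H2-Aa and 94 and 62 bases before it in H2-Eb1. H2-Eb1 had a further ATTGG core on the opposite strand, 35 bases before the start. H2-DMa, the fourth gene with a promoter, had 2 annotated starts, and neither had CTGATTGG, the X box core or the interferon core in the 250 bases before it, while 1 of them had an ATTGG core 198 bases away. Ctss held no Y box letters within 250 bases of its start, an X box core on the opposite strand 75 bases away, and the interferon core 21 bases away. Of 32851 windows of 250 bases before annotated mouse starts, CTGATTGG occurred in 3.83%, ATTGG in 33.9%, CTNGNNAC in 35.6% and GAAANNGAA in 7.13%. The letters searched were chosen with the sequences in view, and a match describes letters, not binding.

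Tumours of antibiotic mice had lower values than tumours of water mice for all 7 genes at 0, 6 and 18 h, and 2 of these genes passed the test. Averaged over the 3 times, Ctss fell by 0.31 ± 0.08 (SE) on the log2 scale, to 0.804 of the water level (limma, adjusted p = 0.0209). H2-Eb1 fell by 0.33 ± 0.10, to 0.797 (adjusted p = 0.0389). The 2 genes were 2 of 7 members, against 6.65% of all genes called in either direction and 4.07% called lower. The median difference over the 7 genes was -0.31, beside 0.00 over all genes. At unadjusted p under 0.05 there were 6 of the 7 genes, all except Ciita, beside 3744 of all 19938 genes. Log2 differences are antibiotics minus water throughout, and a gene is called at a Benjamini-Hochberg adjusted p under 0.05 over all 19938 genes.

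**Figure D1:**
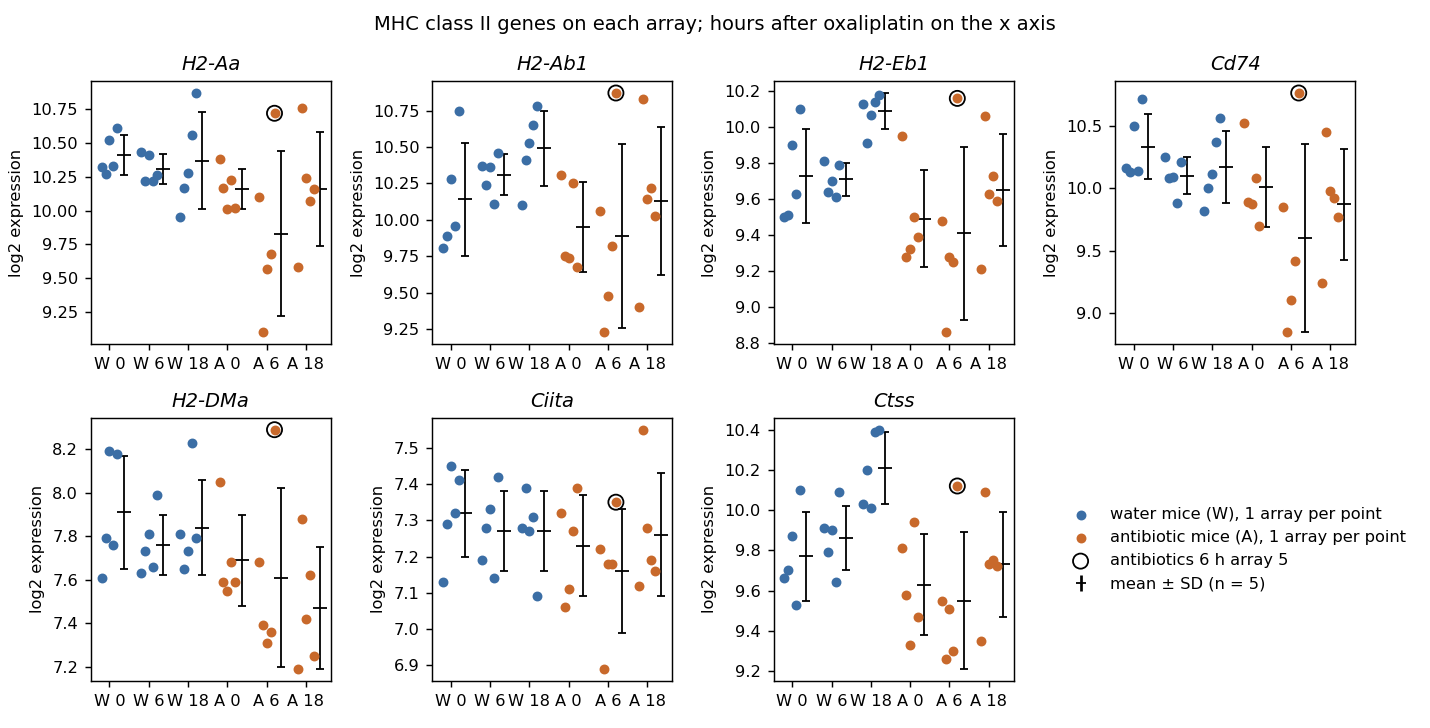
Deposited log2 expression (y axis) of the 7 measured class II genes on each of 30 arrays, by treatment and hours after oxaliplatin (x axis), 1 point per array, with the mean and SD (n = 5) beside each group. Antibiotics 6 h array 5, circled, is the highest of its group in every panel, and Ctss at 18 h shows 4 of 5 antibiotic arrays below all water arrays.

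Ctss encodes cathepsin S, the endosomal cysteine protease that makes the late cuts in the invariant chain. At 0 h its log2 levels on arrays 1 to 5 were 9.66, 9.70, 9.87, 9.53 and 10.10 in water mice and 9.81, 9.58, 9.33, 9.94 and 9.47 in antibiotic mice. The ranges overlapped, and the difference of -0.15 ± 0.15 was no larger than the spread (adjusted p = 0.999). At 6 h the levels were 9.91, 9.79, 9.90, 9.64 and 10.09 against 9.55, 9.26, 9.51, 9.30 and 10.12. Antibiotic arrays 1 to 4 lay below every water array and array 5 above every one, and the difference of -0.32 ± 0.15 did not pass (adjusted p = 0.224). At 18 h the levels were 10.03, 10.20, 10.01, 10.39 and 10.40 in water mice and 9.35, 10.09, 9.73, 9.75 and 9.72 in antibiotic mice. Only array 2 of the antibiotic group reached the water range. Ctss fell by 0.48 ± 0.15 on the log2 scale there, to 0.717 of the water level (95% interval -0.78 to -0.18 on the log2 scale; adjusted p = 0.0398).

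At 18 h Ctss was the 1 member called of 7, beside 7.85% of all genes, or 3.34% called lower. The call sat near the threshold. It was lost when water 18 h array 2, 4 or 5, or antibiotics 18 h array 1, 3, 4 or 5, was left out (adjusted p = 0.0613 to 0.155), with array medians subtracted (0.0508), in an ordinary linear model (0.0538) and with only the 2 groups compared fitted (0.0599). The call of Ctss for the mean of the 3 times held when each of the 30 arrays was left out (adjusted p = 0.00171 to 0.0415) and in the 10 other settings tried.

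Of the 3 chains of the H2-A and H2-E molecules among the 7 genes, H2-Eb1 passed over the times and H2-Aa and H2-Ab1 did not. H2-Ea, the alpha chain of H2-E and not among the 7, was dim. Its group means lay between 5.32 and 5.47, below the array medians (7.253 to 7.365), so the values of H2-Eb1 describe that chain alone. H2-Eb1 at 0 h stood at 9.50, 9.51, 9.90, 9.63 and 10.10 in water mice and 9.95, 9.28, 9.32, 9.50 and 9.39 in antibiotic mice. Its 6 h levels were 9.81, 9.64, 9.70, 9.61 and 9.79 against 9.48, 8.86, 9.28, 9.25 and 10.16. At 18 h they were 10.13, 9.91, 10.07, 10.14 and 10.18 against 9.21, 10.06, 9.63, 9.73 and 9.59. Thus 4 of 5 antibiotic arrays lay below the whole water range at 6 h and again at 18 h, where array 2 was the exception. The differences were -0.24 ± 0.17 at 0 h, -0.30 ± 0.17 at 6 h and -0.44 ± 0.17 at 18 h, with adjusted p-values of 0.945, 0.322 and 0.110 in limma. The fall averaged over the times was called, but it was lost in 18 of 30 fits that left out 1 array (adjusted p = 0.0513 to 0.0757). Those arrays were water 0 h 3 and 5, antibiotics 0 h 2, 3, 4 and 5, water 6 h 1, 3 and 5, antibiotics 6 h 2, 3 and 4, water 18 h 1, 3, 4 and 5, and antibiotics 18 h 1 and 3. Its adjusted p was 0.0553 in an ordinary linear model and 0.0507 with a trended and robust variance.

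H2-Aa, the alpha chain of H2-A, showed its largest gap at 6 h. Water arrays read 10.43, 10.22, 10.41, 10.22 and 10.26 there, and antibiotic arrays 10.10, 9.10, 9.57, 9.68 and 10.72. Arrays 1 to 4 of the antibiotic group fell under all water arrays, and array 5 exceeded them. The difference was -0.47 ± 0.21 (adjusted p = 0.197). At 0 h H2-Aa ranged from 10.27 to 10.61 in water mice and from 10.01 to 10.38 in antibiotic mice, and at 18 h from 9.95 to 10.87 and from 9.58 to 10.76. These ranges overlapped, with differences of -0.25 ± 0.21 and -0.20 ± 0.21 that did not pass (adjusted p = 0.977 and 0.707). Over the 3 times H2-Aa stood at -0.31 ± 0.12 (adjusted p = 0.133).

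H2-Ab1, the beta chain that pairs with H2-Aa, gave -0.19 ± 0.24, -0.42 ± 0.24 and -0.37 ± 0.24 at 0, 6 and 18 h, and -0.33 ± 0.14 over the times (adjusted p = 0.186). At 6 h it again had antibiotic arrays 1 to 4 (10.06, 9.23, 9.48 and 9.82) below the lowest water array (10.11) and array 5 (10.87) above the highest (10.46). At 18 h its antibiotic arrays spread from 9.40 to 10.83 around a water range of 10.10 to 10.78.

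Cd74 encodes the invariant chain itself. At 0 h its levels were 10.16, 10.13, 10.50, 10.14 and 10.71 in water mice and 10.52, 9.89, 9.87, 10.08 and 9.70 in antibiotic mice. At 6 h they were 10.25, 10.08, 10.09, 9.88 and 10.21 against 9.85, 8.85, 9.11, 9.42 and 10.76. At 18 h they were 9.82, 10.00, 10.11, 10.37 and 10.56 against 9.24, 10.45, 9.98, 9.92 and 9.77. The antibiotic 6 h group thus held both the lowest and the highest Cd74 array of the 30, with an SD of 0.75 beside 0.15 in water mice at 6 h. Cd74 differed by -0.32 ± 0.25, -0.50 ± 0.25 and -0.30 ± 0.25 at the 3 times and by -0.37 ± 0.14 over them, and none of these passed (adjusted p = 0.970, 0.250, 0.597 and 0.122).

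H2-DMa, a chain of the peptide exchange factor, differed by -0.22 ± 0.16 at 0 h, -0.16 ± 0.16 at 6 h and -0.37 ± 0.16 at 18 h. At 18 h its antibiotic arrays read 7.19, 7.88, 7.42, 7.62 and 7.25, of which array 2 alone came within the water range of 7.65 to 8.23. Neither that difference (adjusted p = 0.170) nor the one over the 3 times (-0.25 ± 0.09, adjusted p = 0.112) passed.

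Ciita encodes the coactivator of the class II chain genes, and its differences were the smallest of the 7. Group means lay between 7.16 ± 0.17 (SD, n = 5) in antibiotic mice at 6 h and 7.32 ± 0.12 in water mice at 0 h, and arrays of both treatments were interleaved at each time. Its differences were -0.09 ± 0.09, -0.11 ± 0.09 and 0.00 ± 0.09 at 0, 6 and 18 h. Over the times Ciita stood at -0.07 ± 0.05, with a 95% interval of -0.17 to 0.03 (adjusted p = 0.515). Its signal was dim, near the array medians over all rows (7.253 to 7.365), and a filter on dim genes left it out, which limits what its small differences show. Its 18 h difference turned positive with array medians subtracted (0.01) and after quantile normalisation (0.01).

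At 0 h none of the 7 genes was called in limma, beside 0.0903% of all genes, and at 6 h none was called, beside 3.77%. At unadjusted p under 0.05 the counts were 0 and 3 of 7, beside 1317 and 3969 of all 19938 genes. An ordinary linear model called 0 members at both times. The medians of the 7 differences were -0.22 at 0 h, -0.32 at 6 h and -0.37 at 18 h, beside medians over all genes of -0.01, 0.01 and -0.01.

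The 6 h comparison turned on antibiotics 6 h array 5, the highest of its group for all 7 genes. Relative to the mean of all arrays, the mean of 10 skeletal muscle markers was 1.58 on that array and lay between -0.73 and 0.82 on all others. Without it 4 of 7 genes were called lower at 6 h in limma: Cd74 (-0.79 ± 0.20, adjusted p = 0.0202), H2-Aa (-0.70 ± 0.18, 0.0225), Ctss (-0.46 ± 0.13, 0.0368) and H2-Eb1 (-0.49 ± 0.15, 0.0415). Over the 3 times 6 of 7 were then called, Ciita being the exception. At 18 h H2-Eb1 passed beside Ctss (adjusted p = 0.0396 and 0.0151 in limma), its difference unchanged at -0.442 and its SE going from 0.168 to 0.137. Array 5 was singled out after seeing the data, and leaving out the highest array of a group lowers the mean of that group. In the other 29 fits that left out 1 array no member was called at 6 h. Over all 30 such fits Cd74 ranged from -0.794 to -0.317 at 6 h. Leaving out 3 arrays that were high in keratinocyte or muscle markers (water 6 h array 1 and antibiotics 6 h arrays 1 and 5), a choice made after seeing the data, gave 3 of 7 at 6 h, 2 of 7 at 18 h and 6 of 7 over the times. Cd74 then stood at -0.94 ± 0.22 at 6 h. Antibiotics 6 h arrays 5 and 1 were the highest and next highest of their group for all 7 genes. Leaving them out thus lowers that group's mean by the choice itself, and the larger differences are no separate evidence of a fall. Calls over all 19938 genes also shifted with the arrays used. With 1 array left out they reached at most 1420 at 6 h (752 with all arrays), 1852 at 18 h (1566) and 2251 over the times (1325). In the other settings, the fit without the 3 arrays among them, calls reached at most 1266, 2297 and 2251. Some of those settings tested all 28853 rows or left dim genes out, so these counts are not all out of 19938 genes. The part of muscle tissue in the values of array 5 was not tested.

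**Figure D2:**
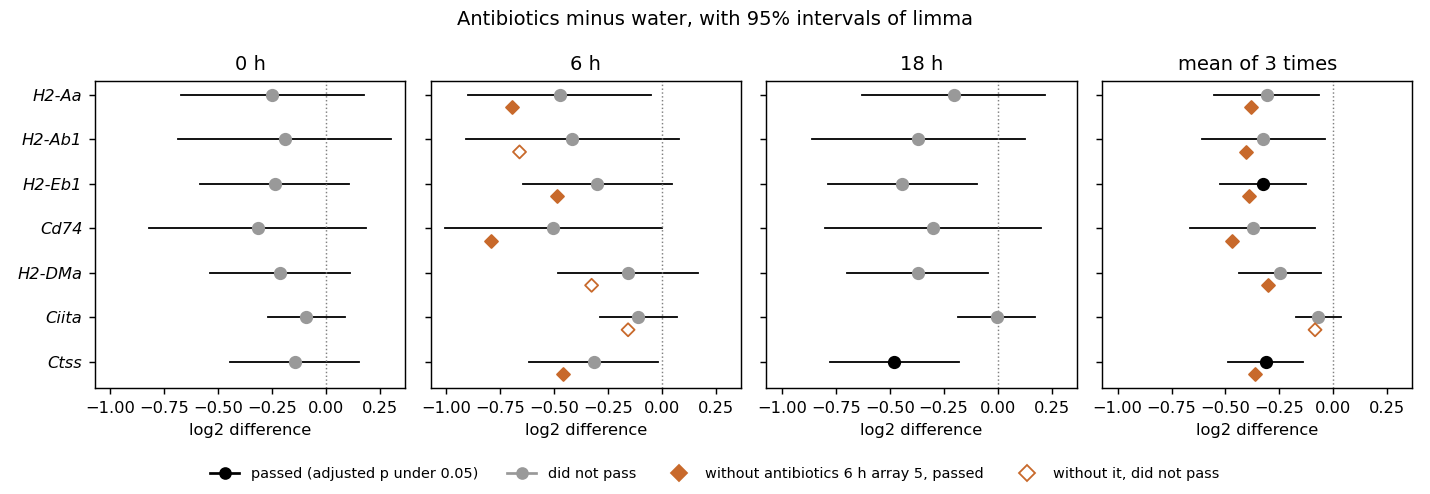
Log2 difference between antibiotic and water tumours (x axis) for each class II gene at 0, 6 and 18 h and averaged over them, with 95% intervals from limma. Black circles passed the test and grey ones did not, and diamonds give the value without antibiotics 6 h array 5, which moves Cd74 at 6 h from -0.50 to -0.79.

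Whether the change with time differed between genes was not tested. In water mice Ctss rose by 0.44 ± 0.15 from 0 to 18 h (limma, adjusted p = 0.0439), to 1.35 times its 0 h level, and it was the 1 member of 7 called, beside 14.1% of all genes. Its group means were 9.77 ± 0.22 (SD, n = 5) at 0 h, 9.86 ± 0.16 at 6 h and 10.21 ± 0.18 at 18 h, and the 18 h range (10.01 to 10.40) overlapped the 0 h range (9.53 to 10.10). The call was lost without water 0 h array 1, 2, 3 or 4, water 6 h array 2, or water 18 h array 2, 4 or 5 (adjusted p up to 0.129). It was also lost with array medians subtracted (0.0530), an ordinary linear model (0.0599) and a trended and robust variance (0.0539).

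H2-Eb1 had a similar pattern in water mice, 9.73 ± 0.26 at 0 h, 9.71 ± 0.09 at 6 h and 10.09 ± 0.10 at 18 h, and its difference of 0.36 ± 0.17 from 0 h did not pass (adjusted p = 0.171). H2-Ab1 differed by 0.36 ± 0.24 over the same interval (adjusted p = 0.397). For the other 4 genes, H2-Aa, Cd74, H2-DMa and Ciita, the difference lay between -0.16 and -0.04. From 6 to 18 h in water mice none of the 7 passed in limma, beside 9.58% of all genes, with Ctss at 0.34 ± 0.15 (adjusted p = 0.142) and H2-Eb1 at 0.38 ± 0.17 (0.158). Both had an unadjusted p under 0.05, the only 2 members that did, beside 4838 of all 19938 genes. With only the 2 groups compared fitted H2-Eb1 passed (adjusted p = 0.00534), and with array weights Ctss passed (0.0467). From 0 to 6 h in water mice none passed, 0 had an unadjusted p under 0.05 (2113 of all genes did), and 1.11% of all genes were called.

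In antibiotic mice none of the 7 genes was called in any interval, and none had an unadjusted p under 0.05. The background was 0% of all genes from 0 to 6 h (2011 genes at an unadjusted p under 0.05), 1.22% from 0 to 18 h (2223) and 2.12% from 6 to 18 h (3196). Ctss stood at 0.10 ± 0.15 from 0 to 18 h there, with an interval of -0.20 to 0.40, and H2-Eb1 at 0.16 ± 0.17. Without the 3 arrays high in skin or muscle markers, H2-Aa (0.71) and Cd74 (0.75) were called higher at 18 than at 6 h in antibiotic mice. With all arrays they stood at 0.33 ± 0.21 and 0.27 ± 0.25 (limma, adjusted p = 0.461 and 0.644). That fit, chosen after seeing the data, drops the highest antibiotic 6 h arrays of both genes, which by itself raises this difference. Calls over everything tested ran from 0 to 911 in the other settings, beside 422 with all arrays.

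Whether antibiotics altered the change with time was tested as an interaction. None of the 7 genes passed, with 0% of all genes called at 6 h (1964 at an unadjusted p under 0.05) and 0.105% at 18 h (1893). No member had an unadjusted p under 0.05, and an ordinary linear model called 0 members in both. For Ctss the change from 0 to 18 h in antibiotic mice minus that in water mice was -0.33 ± 0.21 (95% interval -0.76 to 0.09, adjusted p = 0.693). For H2-Eb1 the interaction was -0.20 ± 0.24 (-0.69 to 0.28). The intervals hold both no difference and a loss of the whole rise, so the larger gap of Ctss at 18 h than at 0 h was not shown to be a difference between times.

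Ordered by group mean, water mice at 18 h had the highest level for H2-Ab1, H2-Eb1 and Ctss, and water mice at 0 h for H2-Aa, Cd74, H2-DMa and Ciita. Antibiotic mice at 6 h had the lowest mean for 6 of 7 genes, and for H2-DMa it was antibiotic mice at 18 h (7.47 ± 0.28, SD, n = 5). Every one of the 3 water groups stood above every antibiotic group in each of the 7 orders. Neighbours in these orders mostly did not differ beyond their spread. The exceptions were H2-Eb1 in water mice at 18 h over 0 h, a gap of 0.36 against an SD of 0.26, and Ctss in water mice at 18 h over 6 h, a gap of 0.34 against 0.18, and even there the ranges overlapped.

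Other genes of the pathway were counted in lists. Of 11 lysosomal processing genes 7 fell over the 3 times in antibiotic mice and 0 rose, with a median of -0.25, beside 4.07% of all genes called lower. These were the cathepsins Ctsd (-0.32 ± 0.04), Ctsb (-0.25 ± 0.04), Ctsz (-0.19 ± 0.04), Ctsl (-0.30 ± 0.06) and Ctsh (-0.31 ± 0.07), the legumain protease gene Lgmn (-0.28 ± 0.05) and Ifi30 (-0.36 ± 0.10), whose product reduces disulphide bonds of antigens in lysosomes. At 18 h 6 of the 11 were lower, beside 3.34% of all genes, among them Ctsd (-0.48 ± 0.08) and Ctsb (-0.37 ± 0.06). In water mice Ctsd (0.33 ± 0.08), Ctsh (0.38 ± 0.12) and Ctsb (0.19 ± 0.06) rose from 0 to 18 h, 3 of 11. Over all 19938 genes 1233 were called higher and 1583 lower, together 14.1%. Single markers of other cells rose in the same interval. These were Cd79b of B cells (0.50 ± 0.07), Lyz2 of macrophages (0.47 ± 0.13), Cd3d of T cells (0.17 ± 0.05) and the endothelial genes Eng (0.33 ± 0.11), Tie1 (0.21 ± 0.06) and Pecam1 (0.22 ± 0.08). They were 1 of 9 B cell, 1 of 11 macrophage, 1 of 9 T cell and 3 of 8 endothelial markers, beside the same 1233 of 19938 genes called higher. In these lists 3, 3, 4 and 1 markers lay below 0. The part of these markers in the rise of Ctss was not tested. The 4 other class II chains that could be measured had 1 member lower over the times, beside the same 4.07%, H2-Oa (-0.17 ± 0.04, adjusted p = 0.0129), a chain of the H2-O complex that inhibits peptide exchange by H2-DM. H2-Oa also rose from 0 to 18 h in water mice (0.23 ± 0.07), while its partner H2-Ob stood at -0.04 ± 0.05 for antibiotics and did not pass.

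Among 8 genes for factors that act at class II or Ciita promoters, 1 fell over the times, beside 4.07% of all genes. This was Spi1 (-0.33 ± 0.07, adjusted p = 0.00533), lower also at 18 h (-0.50 ± 0.13). It encodes PU.1, a transcription factor of myeloid and B cells. The X box factor Rfx5 (-0.09 ± 0.05) and the Y box subunit Nfyb (0.08 ± 0.04) did not pass. From 0 to 18 h in water mice 2 of the 8 fell, Creb1 (-0.28 ± 0.06) and the Y box subunit Nfyc (-0.15 ± 0.04), beside 14.1% of all genes called in either direction.

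In the path from interferon gamma to Ciita 2 of 8 genes fell over the times, beside 4.07% of all genes, the interferon regulatory factor Irf2 (-0.15 ± 0.03) and the receptor chain Ifngr2 (-0.12 ± 0.03). The cytokine gene Ifng (-0.04 ± 0.17) and Irf1 (-0.12 ± 0.12), a transcription factor induced by interferon gamma, did not pass. Irf2 was also called at 6 h and at 18 h, each at -0.18 ± 0.05.

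**Figure D3:**
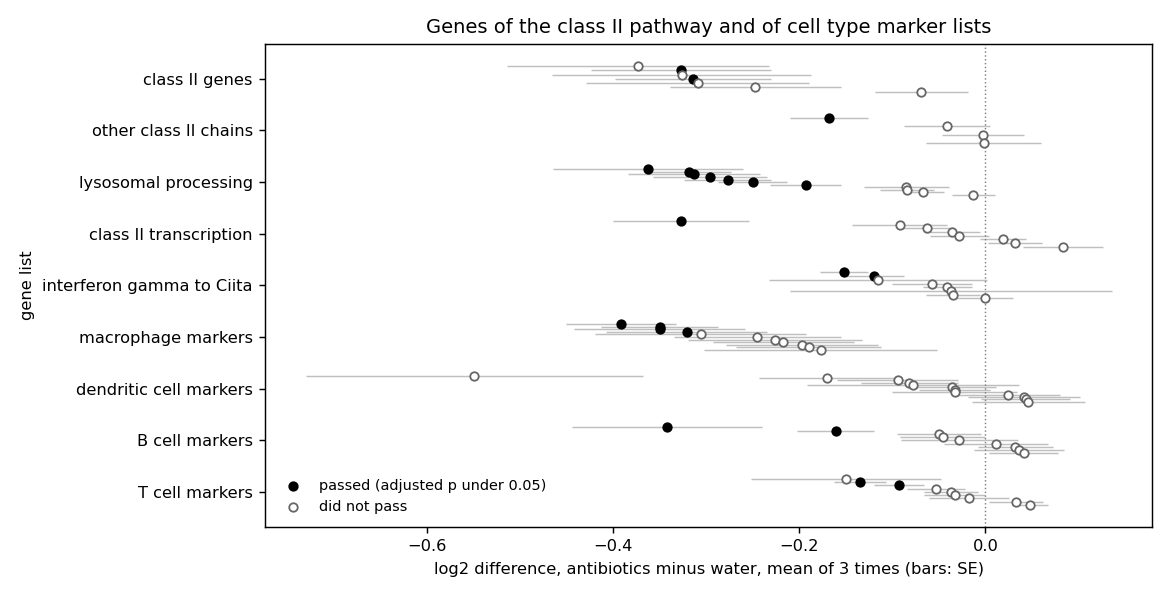
Log2 difference between antibiotic and water tumours averaged over 3 times (x axis, bars are SE) for each gene of the class II set, 4 lists of the pathway and 4 cell type marker lists (y axis). Filled points passed the test: 7 of 11 lysosomal processing genes and 4 of 11 macrophage markers lie among them, and 0 of 12 dendritic cell markers.

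Macrophage markers were lower along with the class II genes. Of 11 markers 4 fell over the times, beside 4.07% of all genes, Cd68 (-0.39 ± 0.06), C1qb (-0.35 ± 0.06), Mertk (-0.35 ± 0.09) and C1qc (-0.32 ± 0.09), and all 11 had values below 0. At 18 h 3 of 11 were lower, beside 3.34% of all genes. The mean of the list per array, relative to all arrays, ranged from -0.10 to 0.38, -0.18 to 0.19 and 0.08 to 0.44 in water mice at 0, 6 and 18 h, and from -0.36 to 0.14, -0.36 to 0.23 and -0.45 to 0.08 in antibiotic mice. The F4/80 gene Adgre1 (-0.23 ± 0.09) and Csf1r (-0.20 ± 0.08), a growth factor receptor of macrophages, did not pass. Their part in the class II differences was not tested.

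Dendritic cell markers gave 0 of 12 calls in limma for the mean of the times, with a median of -0.03. At an unadjusted p under 0.05 there were 2 of 12, beside 3744 of all 19938 genes. Itgax (-0.03 ± 0.07) and Flt3 (-0.03 ± 0.04), a cell surface integrin and a receptor needed for these cells to form, were both near 0, while the lectin gene Clec10a, named after its value was seen, had the list's lowest difference, -0.55 ± 0.18, which missed the threshold (adjusted p = 0.0667). The list mean ranged from -0.08 to 0.22, -0.08 to 0.10 and 0.00 to 0.19 in water mice at the 3 times and from -0.14 to 0.11, -0.27 to 0.14 and -0.20 to 0.11 in antibiotic mice. Of 9 B cell markers 2 fell, beside the same 4.07%, the receptor genes Cd79b (-0.16 ± 0.04) and Cd22 (-0.34 ± 0.10), while Ms4a1 stood at -0.05 ± 0.05 and did not pass. Of 9 T cell markers, which the tumour cells themselves may express, 2 fell over the times, again beside 4.07%, Cd5 (-0.14 ± 0.03) and Cd3e (-0.09 ± 0.03). Cd3d was higher with antibiotics at 6 h (0.20 ± 0.05, adjusted p = 0.0275) and lower at 18 h (-0.19 ± 0.05, adjusted p = 0.0183). Of 10 muscle, 11 keratinocyte, 8 endothelial and 8 neutrophil markers 0 passed. At an unadjusted p under 0.05 there were 0, 1, 1 and 0, beside the same 3744 of all genes. The part of the B and T cell markers was not tested either.

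Without antibiotics 6 h array 5 the counts over the 3 times were 8 of 11 lysosomal genes, 8 of 11 macrophage markers and 2 of 12 dendritic cell markers lower. Without the 3 arrays high in skin or muscle markers they were 8, 6 and 1. At 6 h alone, where 0 of the 11 lysosomal genes and 0 of the 11 macrophage markers had passed, 4 and 2 were lower without array 5 and 2 and 1 without the 3 arrays. These arrays were chosen after seeing the data. With 1 array left out, calls over all 19938 genes reached at most 2251 over the times (1325 with all arrays) and 1420 at 6 h (752).

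The class II genes also varied together between arrays of the same group. After group means were removed, Pearson's r over 30 arrays for the 21 pairs of members ran from 0.511 to 0.959 with a median of 0.835. The pair with the highest value was H2-Ab1 with Cd74 (r = 0.959, Spearman's rho = 0.948, both with permutation p = 1e-05, the smallest that 100000 permutations can give, and adjusted p = 1.7e-05 and 2.6e-05). Without the 2 arrays farthest from the median of H2-Ab1, r was 0.941. H2-Aa with Cd74 gave r = 0.952 (rho = 0.931, permutation p = 1e-05 for both, adjusted 1.7e-05 and 2.6e-05; r = 0.919 without 2 arrays). Cd74 with Ctss gave r = 0.859 (rho = 0.853, permutation p = 2e-05 and 1e-05, adjusted 3.2e-05 and 2.6e-05; r = 0.801 without 2 arrays).

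Ciita was the member least like the others. Its r with H2-Aa was 0.511 (rho = 0.417, permutation p = 0.019 and 0.037, adjusted 0.019 and 0.037), which became 0.305 without 2 arrays. Leaving out the farthest arrays also narrows the spread, and the median r over the 21 pairs went from 0.835 to 0.756. Its r with H2-Eb1 was 0.669 (rho = 0.570, permutation p = 0.0013 and 0.0035, adjusted 0.0016 and 0.0039; r = 0.560 without 2 arrays). Without antibiotics 6 h array 5 the r of H2-Ab1 with Cd74 was 0.947 and that of Ciita with H2-Aa 0.429. All arrays share the unknown normalisation and differ in the tissue they hold, which bears on every pair.

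Each gene was also set against the mean of each of 8 marker lists, 56 pairs in all. Macrophage markers gave r between 0.441 and 0.934 (median 0.823), with Ctss highest (rho = 0.938, permutation p = 1e-05 for both, adjusted 8e-05 and 0.00011; r = 0.916 without 2 arrays) and Ciita lowest. For Cd74 and macrophage markers r was 0.869 (rho = 0.901, permutation p = 1e-05 for both, adjusted 8e-05 and 0.00011; r = 0.858 without 2 arrays). Dendritic cell markers gave 0.626 to 0.863 (median 0.737), highest for H2-Eb1, and B cell markers 0.030 to 0.480 (median 0.144), highest for Ciita. Skeletal muscle markers gave 0.534 to 0.865 (median 0.805), and for Cd74 r went from 0.815 to 0.679 without antibiotics 6 h array 5. T cell, endothelial and neutrophil markers had medians of 0.414, 0.514 and 0.688, and keratinocyte markers -0.132. Class II levels on single arrays thus moved with macrophage, dendritic cell, muscle and neutrophil markers at once, and less closely with endothelial markers. Ciita was an exception for neutrophil markers (r = 0.243), and with macrophage markers its r of 0.441 did not pass (permutation, adjusted p = 0.055). For H2-DMa and neutrophil markers r was 0.504, and 0.287 without 2 arrays. The separate parts of these lists were not tested.

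**Figure D4:**
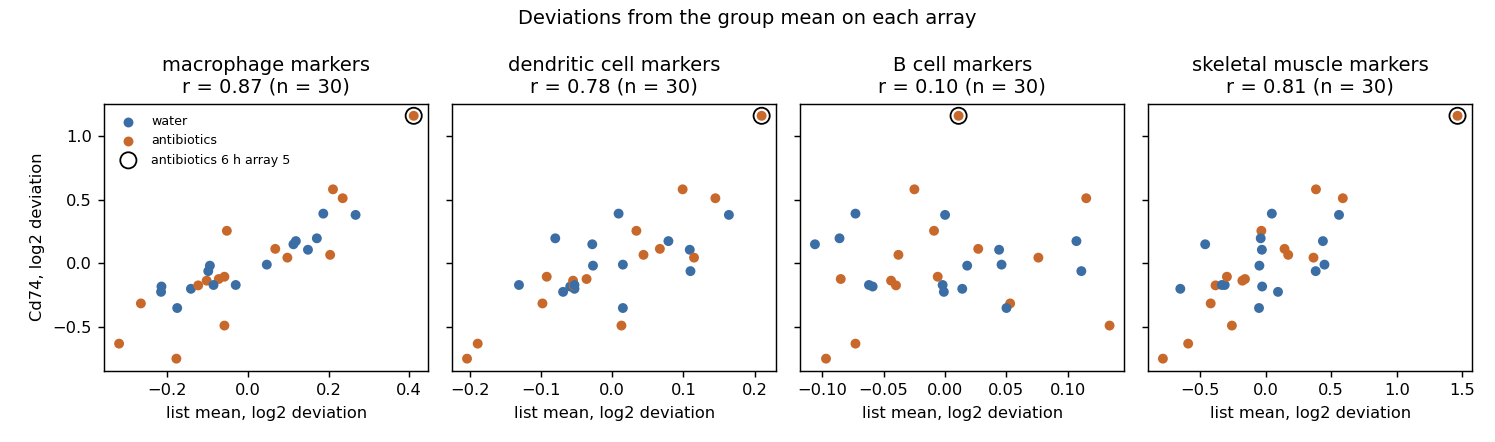
Deviation of Cd74 from its group mean on each array (y axis, log2) against the deviation of the mean of macrophage, dendritic cell, B cell and skeletal muscle markers (x axis, log2), with Pearson's r over 30 arrays. The points rise together for macrophage, dendritic cell and muscle markers, antibiotics 6 h array 5 (circled) is the highest for Cd74, and B cell markers show little relation.

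As a description, all genes were ranked by r, over the same 30 arrays with group means removed, to the mean of H2-Aa, H2-Ab1, H2-Eb1 and Cd74. Outside the class II genes the highest were Selplg (0.958), the P-selectin ligand of leukocytes, Il33 (0.939), a cytokine of barrier and stromal cells, Shisa5 (0.934), Abi3bp (0.927), an extracellular matrix protein, and Serpinb6a (0.926), a protease inhibitor. Lsp1 (0.913), an actin-binding protein of leukocytes, Pam (0.911), Ackr3 (0.911), a scavenging chemokine receptor, Spi1 (0.911) and Mbnl2 (0.910), a splicing factor, followed. Spearman's rho for these 10 lay between 0.834 and 0.936. Of the 10, Shisa5 (-0.21 ± 0.05, adjusted p = 0.00466) and Spi1 passed for antibiotics over the 3 times, and both were lower. Ifi30 ranked 20 (0.901), Csf1r 36 (0.885), Ctss 39 (0.880), H2-DMa 132 (0.842) and Ciita 1249 (0.607). H2-Ob (0.209) and H2-Oa (-0.029) ranked far lower.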

How the data were processed

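Each sample was hybridised to 1 Affymetrix mouse gene array, per the labels. The authors deposited log2 values, 28853 rows for each of 30 arrays, with array medians of 7.253 to 7.365. The submitters' processing notes name Partek 6.6 without its role, with normalisation not given in the sources used here. Rows were named through the platform's probe table: 21775 had 1 symbol, 1578 several and 5500 none. Where a gene had several rows the one with the highest mean was kept, leaving 19938 genes. Values were used as deposited, with no filter.

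Groups came from the labels. One model with 6 group means was fitted to all genes with limma 3.58.1 in R 4.3.3 (24 residual degrees of freedom), for 12 comparisons, two-sided, with Benjamini-Hochberg adjustment over all genes within each. The fit was tested on simulated data. The median residual SD was 0.115, and the number of arrays limits the precision. Correlations used deviations from group means and 100000 permutations within groups, two-sided, adjusted within the 21 pairs of members and the 56 pairs with marker lists.

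The genes, lists and tests were chosen with earlier results of these data known. Named were all measured members, up to 4 genes per list with the smallest p among those that passed, some markers fixed by name, and the 10 genes most like the chains and Cd74. Ctsl and Ctsh were added after their values were seen, to complete a count. Promoters are from RefSeq (GRCm38.p6). Alternatives were other scalings, variance models, filters and row rules, and leaving out arrays.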

Additional observations from a re-analysis of the deposited data

Results flagged for a closer look

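Over the 7 genes and 6 groups, 42 sets of 5 arrays were looked at for an array standing apart from the others, and chance picks about 1 in 20 of such sets. H2-DMa supplied both sets picked. In water mice at 18 h array 4 stood highest at 8.23, with the nearest array at 7.81, a gap of 0.735 of the group's range. In antibiotic mice at 0 h array 1 stood highest at 8.05, with the nearest array at 7.68, a gap of 0.753 of the range. The cause was not tested.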

How the results depend on the processing

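No paired analysis was possible because the sample numbers in the labels run through the whole series and pair no samples between groups. All 7 genes kept their direction for antibiotics at 0 h, at 6 h and over the 3 times in the 30 fits that left out 1 array and in the other settings tried. At 18 h Ciita turned, to 0.014 with array medians subtracted, to 0.012 after quantile normalisation and over -0.078 to 0.030 with 1 array left out.

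The number of class II genes called at 6 h (0) was 1 with array weights, 3 without the 3 arrays high in skin or muscle markers and 0 to 4 with 1 array left out. At 18 h (1) it was 0 with medians subtracted, 0 in an ordinary linear model, 0 with only the groups compared, 2 without the 3 arrays and 0 to 2 with 1 array left out. Over the times (2) it was 1 in an ordinary linear model, 1 with a trended and robust variance, 5 with array weights, 6 without the 3 arrays and 1 to 6 with 1 array left out. From 0 to 18 h in water mice (1) it was 0 with medians subtracted, in an ordinary linear model and with a trended and robust variance, and 0 to 1 with 1 array left out. From 6 to 18 h it was 1 with array weights and 1 with only the groups compared in water mice (0), and 2 without the 3 arrays in antibiotic mice (0). The filter on dim genes leaves out Ciita. Cause of these shifts was not tested, except that fewer arrays or groups give fewer degrees of freedom.

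The number of all genes called was 4 to 126 at 0 h (18), 9 to 1420 at 6 h (752), 600 to 2297 at 18 h (1566) and 1009 to 2251 over the times (1325). From 0 to 6 h it was 119 to 815 in water mice (222) and 0 to 57 in antibiotic mice (0), from 0 to 18 h in antibiotic mice 46 to 569 (244), from 6 to 18 h 1072 to 3565 (1910) and 0 to 911 (422), and for the interactions 0 to 2 (0) and 2 to 121 (21).

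Without the 2 arrays farthest from the median, and without antibiotics 6 h array 5 (chosen after seeing the data), the median r with marker lists went from 0.414 to 0.185 and 0.173 for T cell, from -0.132 to -0.028 and 0.019 for keratinocyte, from 0.805 to 0.660 and 0.679 for muscle, and from 0.688 to 0.562 and 0.586 for neutrophil markers. For endothelial markers it was 0.412 without array 5 (0.514 with it).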
